A study of Arabidopsis thaliana with 72 samples.

Results

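The genotype dependence of the low phosphate response was taken as a difference of differences: the change from high to low phosphate (Pi) in the double mutant phr1 phl1, minus the same change in the wild type Col-0, among seedlings that received no treatment. It was measured in 23 of the 72 RNA-seq libraries of the series. These were 6 libraries of Col-0 at high Pi, 6 of Col-0 at low Pi, 5 of phr1 phl1 at high Pi and 6 of phr1 phl1 at low Pi, all from whole seedlings. High Pi was 1 mM and low Pi about 5 µM, from traces in the agar. Seedlings of all 4 groups germinated for 7 days on 1 mM Pi and then spent 12 days on either medium, with 1% sucrose throughout and a day of 9 h of light. Each group came from 2 experiments, A and B, with libraries numbered 1 to 3 in each. The 24th untreated library, labelled phr1 phl1 high Pi B1, was left out because its label is in doubt. The labels name the mutant without its alleles.

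PHR1 and its close relative PHL1 are MYB transcription factors that switch on many genes when Pi runs short, by binding a short promoter motif called P1BS. Under sufficient Pi, SPX proteins that sense inositol pyrophosphates hold these factors back. Targets include Pi transporters, lipases and phosphatases that free Pi from other molecules, and the non-coding RNA IPS1, which captures the microRNA miR399 and so spares its target PHO2. A positive value of the difference therefore describes a gene that went up more, or down less, at low Pi in the mutant than in Col-0, and a negative value the opposite.

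The 23 libraries held 2212634 to 6883818 counts, with a median of 4455352. PHR1 (AT4G28610) read 49.0 to 74.0 CPM (counts scaled to the size of each library) in the 12 untreated Col-0 libraries and 16.8 to 44.4 CPM in the 11 of the mutant. PHL1 (AT5G29000) read 7.27 to 15.9 CPM in Col-0 and 45.0 to 93.9 CPM in the mutant, so this count marks the genotype without showing a loss. The 2 genotypes did not overlap for either gene, and neither response passed the test for a difference between them (log2 difference -0.01, adjusted p = 1, and 0.59, adjusted p = 0.55). The library left out read 68.6 CPM for PHR1 and 20.3 CPM for PHL1, both within the Col-0 range over all treatments, and 818 CPM for PDF1.2, a jasmonate-induced defensin that reached at most 29.2 CPM in the other libraries without MeJA. A pair of Col-0 libraries stood apart in immune genes: the summed CPM of 13 salicylic acid outputs was 227 in high Pi A2, where the other 5 reached at most 79.7, and 479 in low Pi A3, where the other 5 reached at most 38.7. The labels do not say that libraries of 1 experiment came from separate cultures, so the spread behind each p may be technical.

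Of 18693 genes tested, 63 (0.337%) had a higher low Pi response in phr1 phl1 and 34 (0.182%) a lower one, at an adjusted p under 0.05. The median log2 difference over all genes was 0.01. The fit took in the MeJA and flg22 libraries, and on the 23 untreated libraries alone it gave 46 higher and 41 lower calls, which held 29 of the 63 and 29 of the 34. In Col-0 1322 genes (7.07%) rose and 1581 (8.46%) fell at low Pi, and in the mutant 1244 (6.65%) rose and 1052 (5.63%) fell. Among the 34, 30 rose at low Pi in Col-0 and did not pass the test in the mutant, 2 rose in Col-0 and fell in the mutant, and 2 fell only in the mutant. Among the 63, 50 rose in the mutant and did not pass the test in Col-0, 6 rose in the mutant and fell in Col-0, 6 fell only in Col-0, and 1 passed in neither. Between genotypes at low Pi, 61 of the 63 were higher in the mutant and all 34 were lower, where 2.31% and 1.39% of all genes were. At high Pi, where 0.0428% of all genes were higher and 0.0214% lower, PHO2 was the 1 of the 97 that differed. The low Pi libraries of the 2 genotypes did not overlap for 29 of the 63 and 19 of the 34, against 0.84% and 0.551% of all genes in the same direction. These contrasts are the parts of the difference of differences and use the same libraries, so the split describes the called genes and is no further test.

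**Figure D1:**
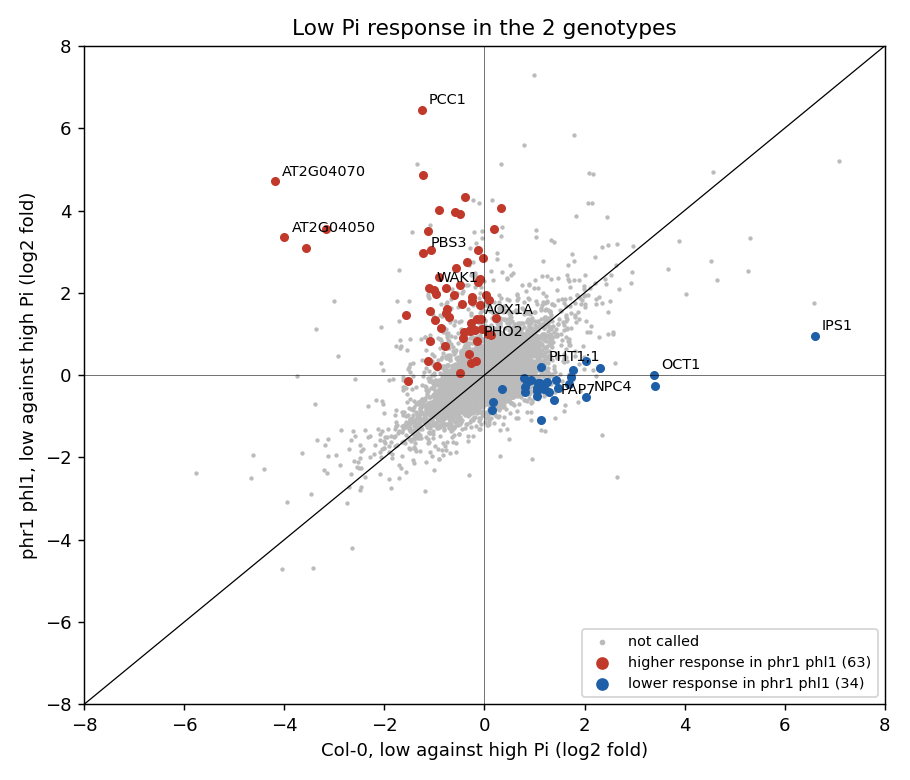
Each point is a gene, with its log2 change from high to low Pi in Col-0 on the horizontal axis and in phr1 phl1 on the vertical axis, and the diagonal marks equal responses. The 63 genes with a higher response in phr1 phl1 (red) lie above the diagonal, mostly near or left of 0 on the Col-0 axis, and the 34 with a lower response (blue) lie to the right, close to 0 on the mutant axis.

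Some phosphate starvation markers rose at low Pi in Col-0 alone by the test, and others rose in both genotypes. Of 13 markers tested, 2 had a lower response in the mutant and none a higher one, with a median of -0.46. Of all genes, 0.182% had a lower response. In Col-0 12 of the 13 rose at low Pi, and in the mutant 7 did. IPS1 (AT3G09922), the non-coding RNA that sequesters miR399, lay at 0 to 1.02 CPM (median 0.181) in Col-0 at high Pi and at 16.7 to 77.3 CPM (median 23.7) at low Pi. In the mutant at high Pi it read 2.09, 1.71, 2.21, 5.51 and 1.58 CPM, and at low Pi 2.59 to 7.60 CPM (median 3.85). The Col-0 groups were far apart, while the mutant groups overlapped and lay above Col-0 at high Pi and below it at low Pi. The log2 difference of the responses was -5.64 ± 1.03 (SE), with an adjusted p of 0.00109, and 2 of the Col-0 high Pi libraries held no read of it.

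OCT1 (AT1G73220), an organic cation transporter of the major facilitator family, also rose at low Pi in Col-0 and changed little in the mutant. Unlike IPS1, it did not lie above Col-0 in the mutant at high Pi. It read 4.11 to 21.5 CPM (median 5.55) in Col-0 at high Pi and 34.7 to 142 CPM (median 76.2) at low Pi. In the mutant it read 4.37, 3.98, 2.43, 4.40 and 3.68 CPM at high Pi and 1.82 to 8.63 CPM (median 2.71) at low Pi. The Col-0 groups did not overlap and the mutant groups did. The log2 difference was -3.38 ± 0.62 (SE, adjusted p = 0.000856), made of a rise by 3.38 in Col-0 and a change of 0.01 in the mutant.

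AT4, a relative of IPS1, rose in both genotypes. It read 3.58 to 13.4 CPM in Col-0 at high Pi and 167 to 451 CPM at low Pi, against 1.56 to 18.9 CPM and 43.7 to 127 CPM in the mutant. Low and high Pi did not overlap in either genotype, and the log2 difference of -1.98 ± 0.69 (SE) did not pass the test (adjusted p = 0.267). SPX1 and SPX2, sensors that restrain PHR1, rose in both genotypes. SPX1 changed by 2.53 in Col-0 and 2.43 in the mutant on the log2 scale, and SPX2 by 0.87 and 0.73. SPX3 was a low-count case: 5 of 6 Col-0 libraries at high Pi held no read, Col-0 at low Pi read 1.96 to 26.1 CPM, and the mutant at low Pi 0 to 1.49 CPM. Its difference did not pass (adjusted p = 0.267). PECP1, a phosphatase acting on phosphocholine and phosphoethanolamine, had a log2 difference of -2.05 ± 0.95 (SE, adjusted p = 0.563).

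**Figure D2:**
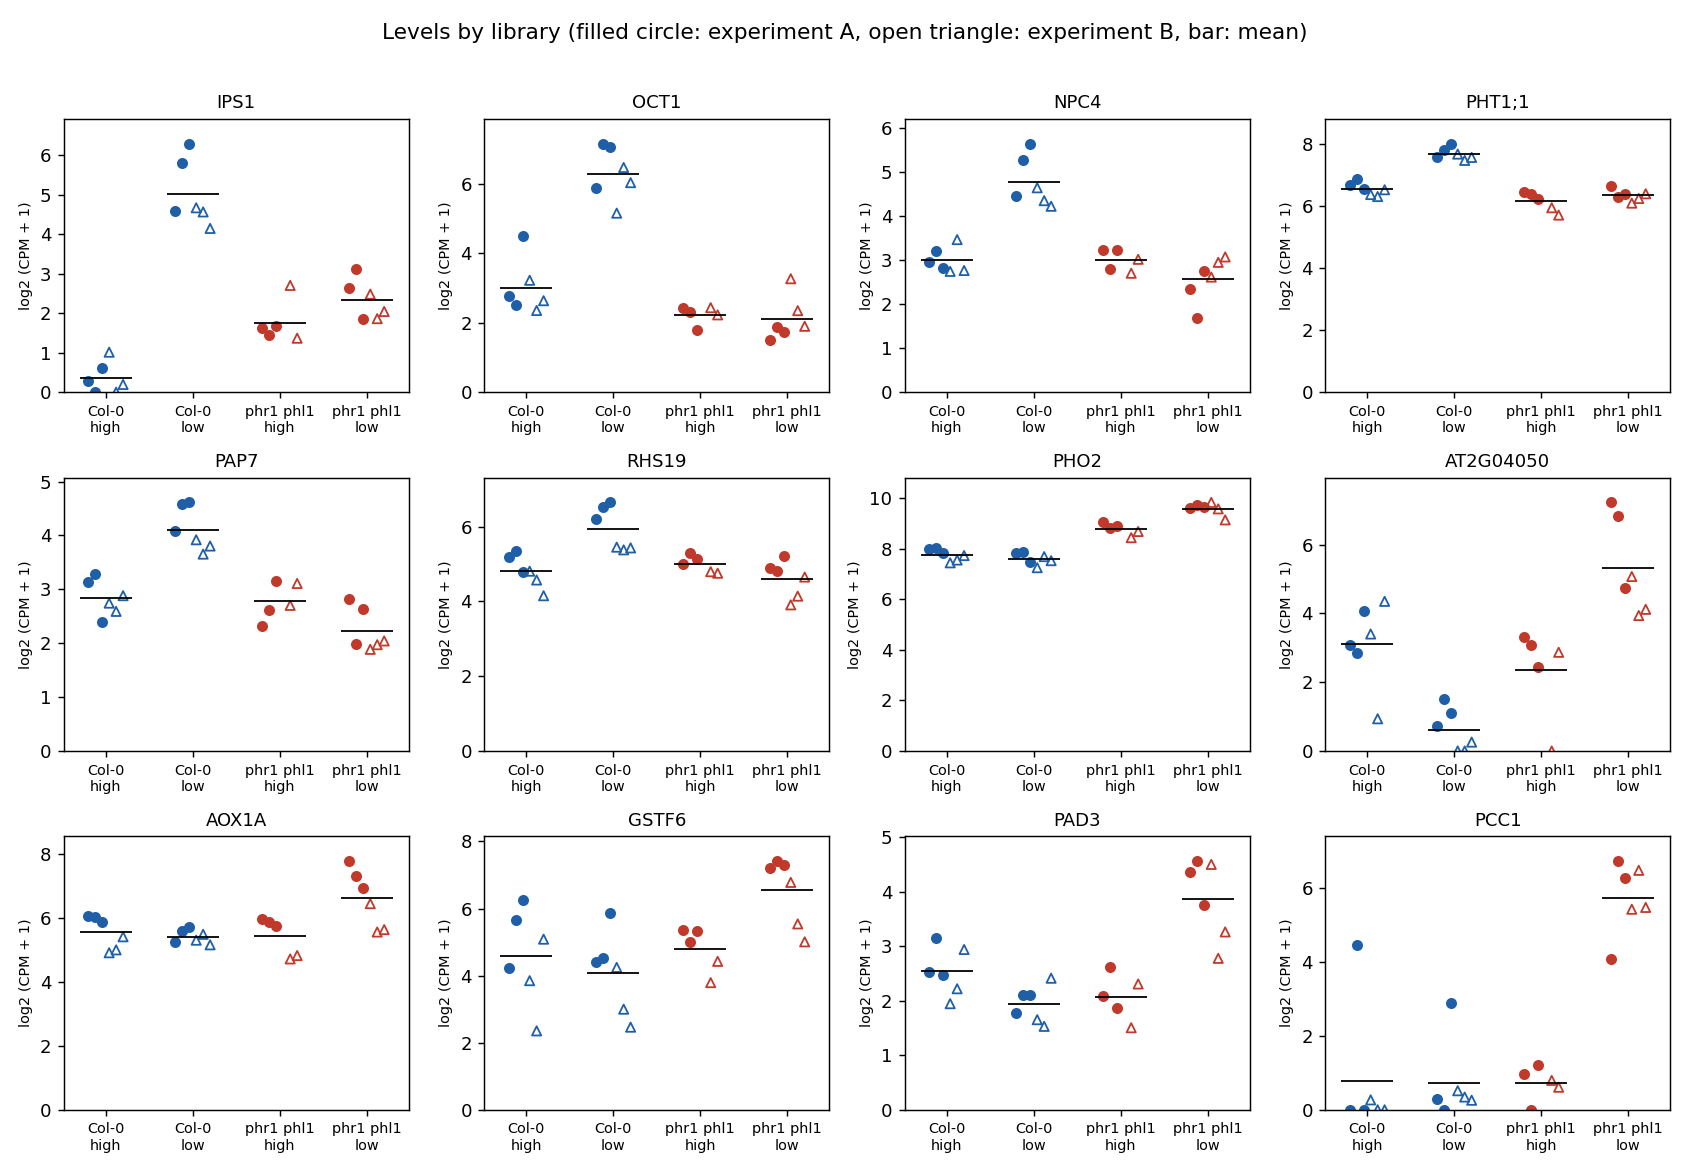
Each panel shows 1 gene, with log2 (CPM + 1) on the vertical axis and every untreated library as a point by genotype and Pi supply. IPS1, OCT1, NPC4, PHT1;1, PAP7 and RHS19 go up from high to low Pi in Col-0 by more than in phr1 phl1, while AT2G04050, AOX1A, GSTF6, PAD3 and PCC1 go up in phr1 phl1. PHO2 and IPS1 already lie higher in phr1 phl1 than in Col-0 at high Pi, with no overlap between those libraries.

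Among the regulators of Pi signalling, PHO2 (AT2G33770) was the 1 of 15 tested that passed, in the opposite direction from the starvation markers. PHO2 is a ubiquitin-conjugating enzyme that removes Pi transporters from membranes and is a target of miR399. It read 174 to 264 CPM (median 221) in Col-0 at high Pi and 152 to 232 CPM (median 195) at low Pi. The mutant read 539, 449, 484, 348 and 412 CPM at high Pi and 567 to 917 CPM (median 798) at low Pi. The mutant was above Col-0 in every library at both Pi supplies, and its own low Pi libraries lay above its high Pi ones. The log2 difference was 0.98 ± 0.21 (SE, adjusted p = 0.00669). The other regulators, among them NLA, LPR1, LPR2, SIZ1 and WRKY75, had log2 differences from -1.05 to 0.94 that did not pass.

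Of 12 Pi transport genes tested, 8 rose at low Pi in Col-0 and 5 in the mutant. PHT1;1 (AT5G43350), a high-affinity Pi uptake transporter, was the 1 member that passed, at the edge of the threshold. It read 77.6 to 116 CPM (median 91.2) in Col-0 at high Pi and 175 to 255 CPM (median 195) at low Pi. The mutant read 85.7, 83.0, 74.1, 60.2 and 51.0 CPM at high Pi and 66.9 to 99.0 CPM (median 79.2) at low Pi. All 6 Col-0 low Pi libraries lay above all others. The log2 difference was -0.94 ± 0.24 (SE, adjusted p = 0.0456), and leaving out any of 17 of the 23 libraries raised the adjusted p above 0.05, to at most 0.102. PHT1;2, a near-identical neighbour whose reads may be mixed with those of PHT1;1, read 24.9 to 70.9 CPM in Col-0 and 1.56 to 4.62 CPM in the mutant at low Pi. Its log2 difference of -2.35 ± 0.71 (SE) did not pass (adjusted p = 0.149), and it rose in both genotypes. PHT1;4 and PHF1, which escorts PHT1 proteins out of the endoplasmic reticulum, also rose in both, by 1.88 and 1.37 and by 0.99 and 0.75 on the log2 scale in Col-0 and the mutant.

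Most membrane lipid genes rose at low Pi in each genotype, counted separately. Of 17 tested, 12 rose at low Pi in Col-0 and 10 in the mutant, the median log2 difference was 0.07, and only NPC4 passed. NPC4 (AT3G03530) is a phospholipase C that cleaves phospholipids at the plasma membrane under Pi shortage. It read 5.70 to 10.0 CPM (median 6.43) in Col-0 at high Pi and 17.7 to 49.1 CPM (median 22.5) at low Pi. In the mutant it read 8.36, 5.97, 8.38, 5.51 and 7.10 CPM at high Pi and 2.24 to 7.40 CPM (median 5.41) at low Pi. Col-0 at low Pi lay above every other library, and the log2 difference was -2.56 ± 0.43 (SE, adjusted p = 0.000378). In contrast the sulfolipid enzyme SQD1, the galactolipid synthase MGD2 and the phosphodiesterase GDPD1 rose in both genotypes. Their changes in Col-0 were 1.00, 1.46 and 2.48 on the log2 scale, and those in the mutant 1.54, 2.06 and 3.16.

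NPC4 is also 1 of 4 genes, among the 34 with a lower response, that carry P1BS, the motif bound by PHR1, near the annotated start. That is 11.8%, beside 9.52% of the genes with a higher response and 6.21% of all genes. The windows below are those of NPC4 and of ANNAT1 (AT1G35720, an annexin, a calcium-dependent membrane-binding protein), 250 bases before to 50 after the start, 5′ to 3′ on the gene's strand, from the RefSeq annotation of TAIR10.1. The motif, spelled GNATATNC and searched on both strands, is in capitals. Its first base lies at -219 from the start in NPC4 and at 22, past the start, in ANNAT1. The other 2 genes were AT2G43535 and AT5G61550, and the pair with gene symbols is shown. They lie at chr3:845047-845346 (- strand) and chr1:13224918-13225217 (+ strand).
NPC4: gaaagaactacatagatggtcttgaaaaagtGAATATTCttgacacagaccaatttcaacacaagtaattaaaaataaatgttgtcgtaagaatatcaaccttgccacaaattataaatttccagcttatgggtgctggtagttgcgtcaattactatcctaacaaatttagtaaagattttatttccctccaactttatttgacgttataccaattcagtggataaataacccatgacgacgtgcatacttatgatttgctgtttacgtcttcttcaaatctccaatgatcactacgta
ANNAT1: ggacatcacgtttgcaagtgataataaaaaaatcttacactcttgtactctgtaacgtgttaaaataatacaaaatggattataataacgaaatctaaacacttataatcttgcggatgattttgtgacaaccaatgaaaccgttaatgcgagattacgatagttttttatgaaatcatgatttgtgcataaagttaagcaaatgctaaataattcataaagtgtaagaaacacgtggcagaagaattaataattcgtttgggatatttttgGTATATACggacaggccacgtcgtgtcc
ANNAT1 read 278 to 342 CPM (median 311) in Col-0 at high Pi and 364 to 976 CPM (median 518) at low Pi. The mutant read 386, 396, 391, 338 and 301 CPM at high Pi and 272 to 413 CPM (median 301) at low Pi. Only the Col-0 groups stood apart, with a log2 difference of -1.06 ± 0.19 (SE, adjusted p = 0.00083).

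Purple acid phosphatases, enzymes that release Pi from organic compounds inside and outside the cell, included 2 members with a lower response among 15 tested (median -0.03). Among all genes 0.182% had a lower response. PAP7 (AT2G01880) read 4.25 to 8.72 CPM (median 6.03) in Col-0 at high Pi and 11.6 to 23.5 CPM (median 15.0) at low Pi. The mutant read 3.99, 5.12, 7.94, 5.51 and 7.62 CPM at high Pi and 2.70 to 6.08 CPM (median 3.05) at low Pi. The Col-0 low Pi libraries did not overlap with any other group, and the log2 difference was -1.98 ± 0.40 (SE, adjusted p = 0.00426). PAP22 had a log2 difference of -1.55 ± 0.37 (SE, adjusted p = 0.0256), and its call was lost in 7 of 23 fits with 1 library left out, with an adjusted p of at most 0.114. PAP12 and PAP17, whose proteins are made under Pi shortage, rose in both genotypes, PAP12 by 1.25 in Col-0 and 1.22 in the mutant.

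Genes of root hairs, the outgrowths that take up Pi from soil, shared 1 direction. All 22 tested had a negative difference, with a median of -1.08, and 4 passed the test: RHS19, PRP3, RHS13 and LRX1. Of all genes, 48.5% had a negative difference and 0.182% were called lower. In Col-0 18 of the 22 rose at low Pi, and in the mutant none rose or fell. RHS19 (AT5G67400), a peroxidase, read 16.8 to 39.6 CPM (median 26.9) in Col-0 at high Pi and 40.7 to 99.5 CPM (median 58.1) at low Pi. The mutant read 31.3, 38.0, 34.0, 26.8 and 26 CPM at high Pi and 14 to 36.5 CPM (median 25.7) at low Pi. Every Col-0 low Pi library lay above every other library, and the log2 difference was -1.52 ± 0.27 (SE, adjusted p = 0.000725). PRP3, a proline-rich wall protein, had a log2 difference of -1.44 ± 0.31 (SE, adjusted p = 0.00817). RHS13, another root hair wall protein, and LRX1, a leucine-rich extensin, had -1.42 and -1.27. The call of RHS13 was lost without Col-0 low Pi A3 (adjusted p = 0.0511), and that of LRX1 in 13 of 23 such fits, with an adjusted p of at most 0.114. RHD6 and RSL4, the transcription factors that start and extend root hairs, had log2 differences of -0.97 ± 0.37 and -1.29 ± 0.47 (SE) that did not pass (adjusted p = 0.371 and 0.306).

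Root cells in general were read beside this, since whole seedlings mix organs. The summed CPM of the root hair list was 234 to 386 (median 284) in Col-0 at high Pi and 305 to 702 (median 513) at low Pi, against 237 to 368 (median 341) and 192 to 370 (median 263) in the mutant. The list of root endodermis and root tip genes summed to 153 to 222 and 179 to 212 in Col-0, and to 149 to 186 and 132 to 162 in the mutant, so at low Pi the genotypes did not overlap. None of its 11 genes passed, 1 of 11 had a positive difference, beside 51.5% of all genes, and the median was -0.53. CASP1, a protein of the endodermal barrier, had a log2 difference of -0.57 ± 0.31 (SE, adjusted p = 0.699). The 29 green tissue genes had a median difference of -0.04 with none called. At high Pi they summed to 106103 to 125207 CPM in Col-0 and 76129 to 103634 CPM in the mutant, with no overlap. At low Pi the sums were 102658 to 148372 CPM in Col-0 and 69655 to 111004 CPM in the mutant, and these ranges overlapped. Fewer cells of a type and less RNA per cell cannot be told apart in these libraries, and the part of root mass in the root hair result was not tested.

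EXT10 (AT5G06640), a proline-rich extensin-like protein, had a log2 difference of -1.70 ± 0.35 (SE, adjusted p = 0.00504). It read 25.6 to 57.5 CPM in Col-0 at high Pi and 58.2 to 164 CPM at low Pi, against 71.4, 65.3, 62.0, 23.9 and 26.5 CPM and 20.2 to 59.3 CPM in the mutant. The Col-0 groups did not overlap, though the lowest Col-0 library at low Pi, from experiment B, lay within the mutant's range. AGP3, an arabinogalactan protein, and XTH14, which remodels xyloglucan, had -1.39 ± 0.32 (SE, adjusted p = 0.014) and -1.31 ± 0.33 (SE, adjusted p = 0.0456), and the call of XTH14 was lost in 16 of 23 fits with 1 library left out. The call of AGP3 was lost without Col-0 high Pi A2 and low Pi A3 together (adjusted p = 0.0681). AGP3 and XTH14 were chosen after their values were seen.

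Other genes were called with a lower response as well. AT1G64590, a protein with an NAD(P)-binding fold, had a log2 difference of -2.15 ± 0.37 (SE, adjusted p = 0.000435). It read 4.25 to 12.8 CPM in Col-0 at high Pi and 34.6 to 78.2 CPM at low Pi, against 13.9, 13.2, 17.6, 18.7 and 11.6 CPM and 11.3 to 21.3 CPM in the mutant, so that only Col-0 at low Pi stood apart. NSP3, which steers glucosinolate breakdown to nitriles, had -1.78 ± 0.34 (SE, adjusted p = 0.00174). CHIB, a basic chitinase and the 1 of 22 jasmonate genes called, had -1.66 ± 0.37 (SE, adjusted p = 0.0128), a call lost without phr1 phl1 high Pi B2 (adjusted p = 0.06). AT2G43535, a knottin-like protein, had -1.69 ± 0.32 (SE, adjusted p = 0.00157), and AT5G61550, a U-box protein kinase, -1.91 ± 0.40 (SE, adjusted p = 0.00513). ACX6, an acyl-CoA oxidase, and AT5G42510, a dirigent-like protein, had -2.21 and -1.78 with adjusted p of 0.0193 and 0.0168. Their calls were lost in 3 and 1 of the 23 fits with a library left out. The soluble pyrophosphatase PPa5, named after its values were seen, rose by 0.78 in Col-0 and changed by -0.07 in the mutant, with a log2 difference of -0.86 ± 0.16 (SE, adjusted p = 0.000856). PLL3, a protein phosphatase 2C also named after its values were seen, read 2.16 to 7.77 CPM in Col-0 at low Pi and at most 2.2 CPM in every other untreated library (log2 difference -3.67 ± 0.70, SE, adjusted p = 0.00174), so 1 mutant library at high Pi reached the lowest of Col-0 at low Pi.

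**Figure D3:**
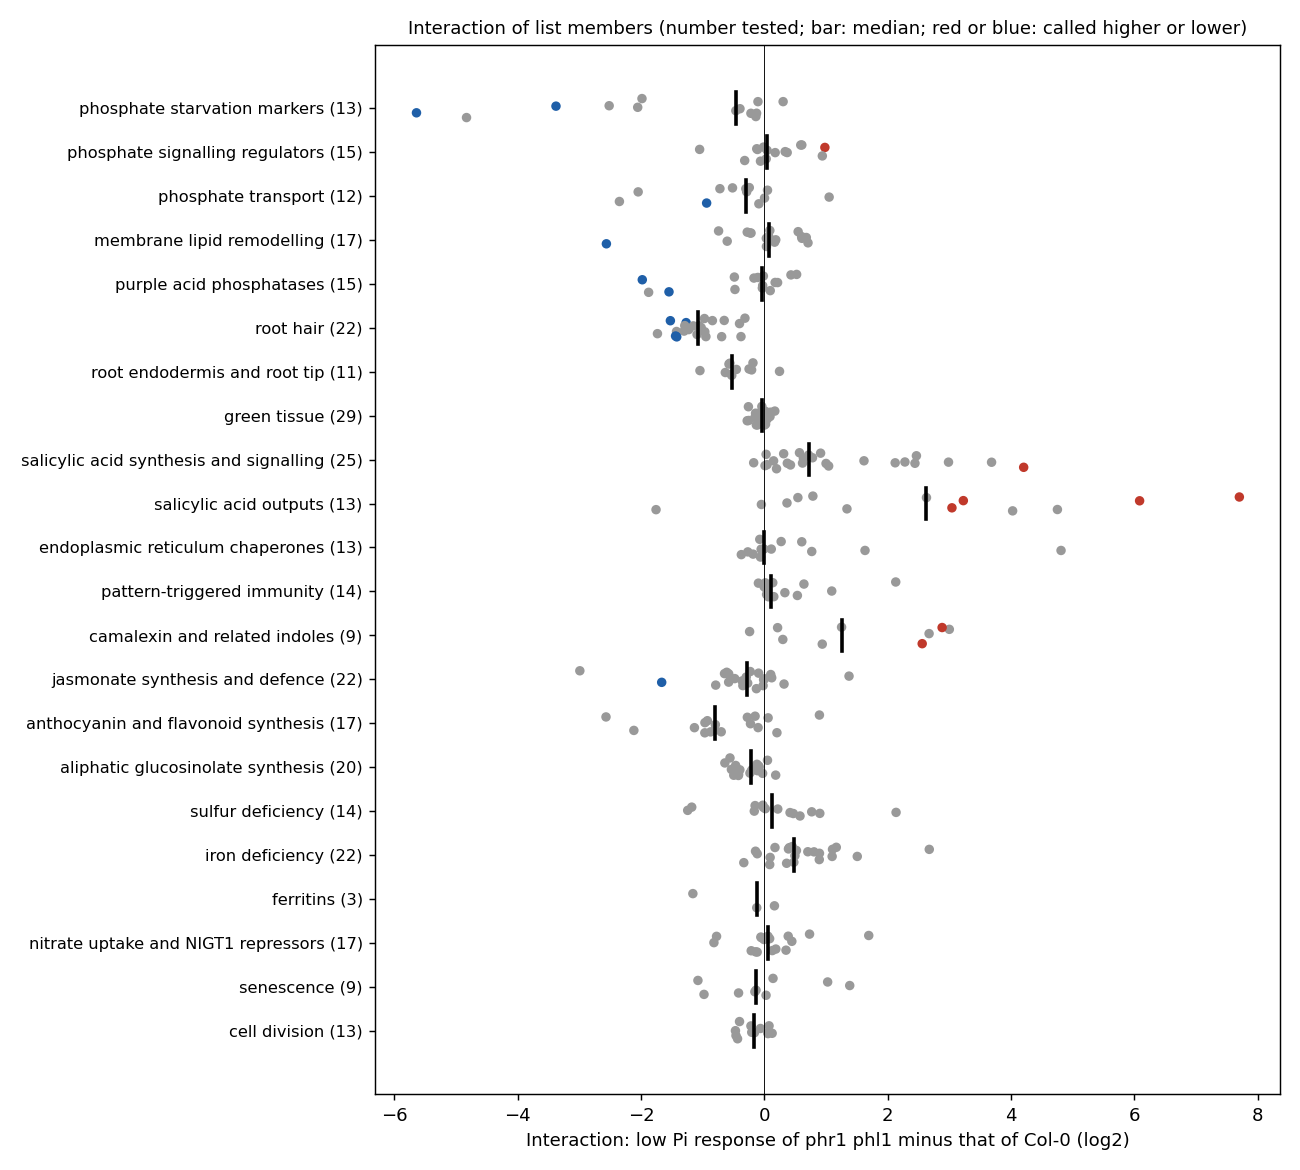
Each point is a gene of a list, with its log2 difference of low Pi responses (phr1 phl1 minus Col-0) on the horizontal axis. The bars mark list medians, red and blue points passed the test, and all 22 root hair genes lie left of 0 while 24 of 25 genes of salicylic acid synthesis and signalling lie right of it.

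Among the genes with a higher response, AT2G04070, PCC1 and AT2G04050 had the largest differences of those the naming rule allows. AT2G04050 and AT2G04070 belong to the MATE family of efflux transporters and sit in a cluster of similar genes with DTX1 (AT2G04040), so reads may be split among them. AT2G04050 read 0.913 to 19.4 CPM (median 8.48) in Col-0 at high Pi and 0 to 1.83 CPM (median 0.430) at low Pi. In the mutant it read 8.93, 7.53, 4.41, 0 and 6.31 CPM at high Pi and 14.3 to 149 CPM (median 29.1) at low Pi. Low Pi thus lowered it in Col-0, where 2 libraries held no read, and raised it in the mutant, whose low Pi libraries lay above those of Col-0. The log2 difference was 7.34 ± 0.82 (SE, adjusted p = 1.25e-08). AT2G04070 read at most 2.70 CPM outside the mutant's low Pi libraries and 3.12 to 75.9 CPM in them. Its fitted log2 difference of 8.89 depends on the prior count, since the 6 Col-0 low Pi libraries held 2 reads in all. DTX1 had a log2 difference of 1.91 ± 0.44 (SE, adjusted p = 0.0157), lost in 3 of 23 fits with a library left out.

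Glutathione S-transferases, which attach glutathione to foreign and reactive compounds, held 7 of the 63 genes: GSTU4, GSTU9, GSTU10, GSTU11, GSTF2, GSTF6 and GSTF7. This family was grouped after the calls were seen. Among its 42 tested members, found by symbol, 16 had a positive difference and the median was -0.08, beside 51.5% positive among all genes. GSTF7 (AT1G02920) read 6.39 to 40.7 CPM (median 16.7) in Col-0 at high Pi and 6.87 to 39.2 CPM (median 12.0) at low Pi. The mutant read 30.2, 19.5, 27.1, 7.71 and 6.05 CPM at high Pi and 39.4 to 173 CPM (median 126) at low Pi. The mutant at low Pi lay above every Col-0 low Pi library, with a log2 difference of 3.09 ± 0.55 (SE, adjusted p = 0.000725). GSTF6, a close copy that acts in camalexin synthesis, had 2.56 ± 0.60 (SE, adjusted p = 0.0189), lost without Col-0 high Pi A3 (adjusted p = 0.0758). GSTU4 and GSTU9 had 2.93 ± 0.46 (SE, adjusted p = 0.000104) and 2.39 ± 0.41 (SE, adjusted p = 0.00043). GSTU11 had 3.36 ± 0.74 (SE, adjusted p = 0.0113), lost in 2 such fits, and its counts were low outside the mutant at low Pi (0.266 to 1.71 CPM).

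CYP81D8 (AT4G37370), a cytochrome P450, read 2.03 to 16.6 CPM in Col-0 at high Pi and 1.57 to 6.42 CPM at low Pi. The mutant read 6.84, 9.24, 8.38, 1.47 and 6.83 CPM at high Pi and 7.02 to 63.6 CPM at low Pi, above all Col-0 low Pi libraries. On the log2 scale the difference was 3.07 ± 0.55 (SE, adjusted p = 0.000725). SOT12, a sulfotransferase, had 2.05 ± 0.34 (SE, adjusted p = 0.00043), and UGT74E2, which glucosylates the auxin indole-3-butyric acid, 2.15 ± 0.51 (SE, adjusted p = 0.0193), lost in 2 of 23 fits with a library left out. Both were chosen after their values were seen. Of 48 UDP-glycosyltransferases found by symbol, UGT74E2 was the 1 called, 23 had a positive difference and the median was -0.02. Only symbols that begin with UGT were searched, so DOGT1, a glucosyltransferase under another symbol, was not counted. DOGT1 was called higher, with a log2 difference of 2.35 ± 0.52 (SE, adjusted p = 0.0124). AT3G28510 and AT3G28580, P-loop ATPases, had 4.62 and 4.1 with adjusted p of 0.00492 and 0.00373, and the call of AT3G28510 was lost without Col-0 high Pi A3 (adjusted p = 0.253). AT5G13210, an uncharacterized protein, and AT2G20720, a pentatricopeptide repeat protein, had 3.19 ± 0.49 and 3.31 ± 0.59 (SE).

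Genes of alternative respiration and mitochondrial stress, grouped after the calls were seen, had 3 of 8 tested members called and all 8 positive, with a median of 1.5. Among all genes 0.337% were called higher and 51.5% were positive. On the 23 untreated libraries alone, where 6 of the 8 were tested, the median of the list was 0.95. AOX1A (AT3G22370), the alternative oxidase that lets electrons bypass part of the respiratory chain, read 29.1 to 66.4 CPM (median 49.6) in Col-0 at high Pi and 34.7 to 51.4 CPM (median 41.2) at low Pi. In the mutant it read 61.2, 58.0, 52.7, 25.3 and 27.3 CPM at high Pi and 46.2 to 218 CPM (median 104) at low Pi. The 3 experiment A libraries of the mutant at low Pi, at 122 to 218 CPM, lay above all others, while in experiment B 2 of 3 fell within the Col-0 low Pi range. The responses differed on the log2 scale by 1.5 ± 0.3 (SE, adjusted p = 0.00369). BCS1, an ATPase of the outer mitochondrial membrane, had 2.64 ± 0.52 (SE, adjusted p = 0.003), and NAC13, a transcription factor that relays mitochondrial stress to the nucleus, 1.49 ± 0.32 (SE, adjusted p = 0.00669). NAC017, a related regulator, had 0.07 ± 0.12 (SE) and read 53.6 to 76.4 CPM in every library. CRF6, a cytokinin response factor named after its values were seen, had 1.16 ± 0.26 (SE, adjusted p = 0.0117). AT5G54100, a stomatin-like protein, and AT5G51440, an HSP20-like chaperone, had 1.33 and 2.32, both named after their values were seen, with the call of AT5G51440 lost in 10 of 23 fits and that of AT5G54100 without phr1 phl1 low Pi A1 (adjusted p = 0.0638).

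A promoter motif bound by NAC13 and its relatives, the mitochondrial dysfunction motif, was searched after the calls were seen, as CTTG and then CAAG or CACG with 5 unspecified bases between, on both strands. In the window from 250 bases before to 50 after the annotated start it was in 12 of 63 genes with a higher response (19%), none of 34 with a lower response and 190 of all 18681 genes with a window (1.02%). The 12 were UGT74E2, SOT12, AT2G04050, AT2G18193, AT2G41730, AOX1A, AT3G28580, AT4G12735, CYP81D8, AT5G24640, AT5G51440 and AT5G54100. A window of 1000 bases before the start held it in 17.5%, 8.82% and 3.85% of the 3 sets. These 5 windows show where the matches, in capitals, lie in genes described above and in AT4G12735, an uncharacterized gene with 2 matches. They are RefSeq TAIR10.1, 5′ to 3′ on the gene's strand, at chr3:7906271-7906570 (+ strand), chr2:1339419-1339718 (- strand), chr4:7494185-7494484 (- strand), chr1:1704789-1705088 (- strand) and chr4:17571694-17571993 (- strand).
AOX1A: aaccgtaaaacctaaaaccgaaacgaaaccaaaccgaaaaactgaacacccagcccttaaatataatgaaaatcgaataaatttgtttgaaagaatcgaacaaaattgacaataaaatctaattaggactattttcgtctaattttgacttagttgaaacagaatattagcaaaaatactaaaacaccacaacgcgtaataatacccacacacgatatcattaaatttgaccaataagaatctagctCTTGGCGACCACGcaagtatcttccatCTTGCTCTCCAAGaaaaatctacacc
AT2G04050: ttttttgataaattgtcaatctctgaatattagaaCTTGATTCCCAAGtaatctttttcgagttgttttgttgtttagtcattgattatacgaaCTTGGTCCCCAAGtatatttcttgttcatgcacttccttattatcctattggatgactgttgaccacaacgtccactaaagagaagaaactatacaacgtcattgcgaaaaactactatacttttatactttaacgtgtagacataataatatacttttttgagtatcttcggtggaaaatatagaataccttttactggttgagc
AT4G12735: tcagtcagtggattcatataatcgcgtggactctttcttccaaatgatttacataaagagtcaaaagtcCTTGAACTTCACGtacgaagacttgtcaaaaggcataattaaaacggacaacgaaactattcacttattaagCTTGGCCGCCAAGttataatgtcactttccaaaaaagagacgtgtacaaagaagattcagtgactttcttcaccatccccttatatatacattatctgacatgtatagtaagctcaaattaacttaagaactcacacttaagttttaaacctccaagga
UGT74E2: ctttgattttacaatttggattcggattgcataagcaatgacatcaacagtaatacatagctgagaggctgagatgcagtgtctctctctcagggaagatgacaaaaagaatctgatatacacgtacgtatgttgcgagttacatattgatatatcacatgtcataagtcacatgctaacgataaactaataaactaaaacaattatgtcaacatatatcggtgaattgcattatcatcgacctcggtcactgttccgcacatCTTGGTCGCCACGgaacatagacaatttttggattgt
CYP81D8: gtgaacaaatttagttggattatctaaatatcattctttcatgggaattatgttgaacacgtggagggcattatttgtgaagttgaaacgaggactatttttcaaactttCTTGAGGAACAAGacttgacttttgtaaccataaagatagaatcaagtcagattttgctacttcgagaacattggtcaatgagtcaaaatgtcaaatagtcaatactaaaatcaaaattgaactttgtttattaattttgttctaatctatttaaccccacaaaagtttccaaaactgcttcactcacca
AT4G12735 read at most 1.54 CPM in the other 3 groups and 2.05 to 31.5 CPM in the mutant at low Pi, with no overlap (log2 difference 4.93 ± 1.02, SE, adjusted p = 0.00504).

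P1BS was in 11.8% of the genes with a lower response, 9.52% of those with a higher response and 6.21% of all genes in the same window, and in 32.4%, 20.6% and 20.4% in the window of 1000 bases. IPS1 and OCT1 held no GNATATNC in the shorter window, but 2 and 1 in the window of 1000 bases. The W-box, TTGACC or TTGACT on either strand, which WRKY factors of immunity bind, was in 38.2%, 52.4% and 32.9% in the shorter window. In the window of 1000 bases it was in 67.6%, 81% and 67.5%. No motif's letters contain those of another. A match is a description of the letters and says nothing of binding.

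**Figure D4:**
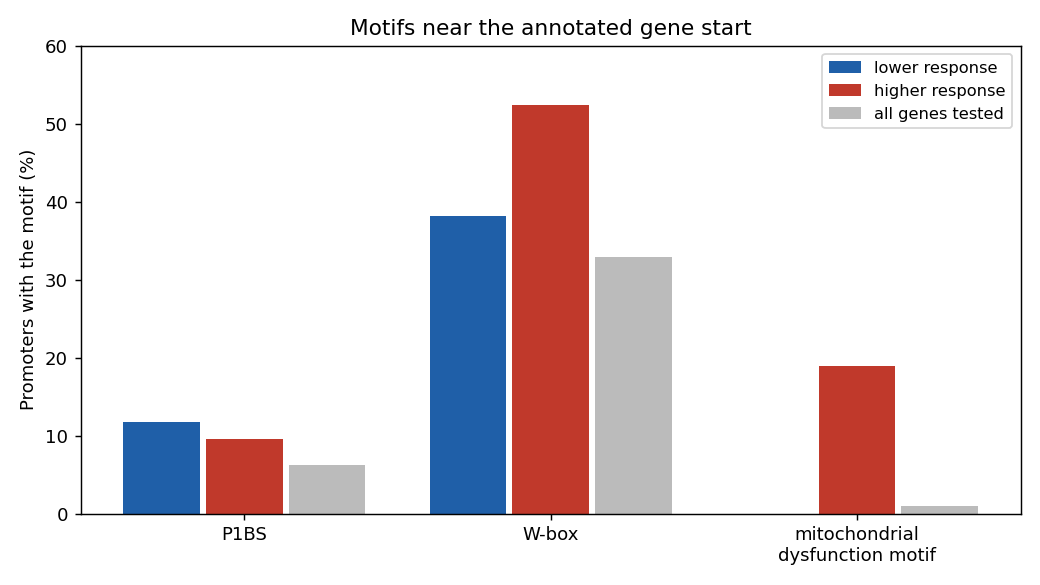
Bars give the percentage of genes with each motif in the window from 250 bases before to 50 after the annotated start, for the 34 genes with a lower response, the 63 with a higher response and all genes tested. The mitochondrial dysfunction motif stands at 19% in the higher set, 0% in the lower set and 1.02% in all genes.

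Salicylic acid (SA) is the hormone of defence against biotrophic pathogens, made through ICS1 and PBS3 and read out through NPR1 and WRKY factors. Of 25 genes of its synthesis and signalling, 24 had a positive difference, with a median of 0.72, and only PBS3 passed. Of 13 outputs, 11 were positive, with a median of 2.63, and 4 passed: PCC1, BDA1, WAK1 and ACD6. Among all genes 51.5% were positive and 0.337% were called higher. At low Pi 14 of the 25 and 8 of the 13 rose in the mutant, against 2 and 3 in Col-0. Without Col-0 high Pi A2, the library with raised immune genes, no member of either list passed and the median of the outputs was 0.64. Without both A2 and Col-0 low Pi A3, left out together after the data were seen, that median was 3.31 and 2 outputs passed. On the 23 untreated libraries alone no synthesis or signalling gene and 1 output passed, and with limma-voom none of either.

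WAK1 (AT1G21250), a wall-associated receptor kinase, read 5.29 to 15.1 CPM in 5 Col-0 high Pi libraries and 88.1 CPM in A2. It read 4.04 to 7.49 CPM in 5 Col-0 low Pi libraries and 30.7 CPM in A3. In the mutant it read 16.1, 15.6, 15.9, 9.18 and 4.47 CPM at high Pi and 18.7 to 83.4 CPM (median 53.8) at low Pi. The mutant's low Pi libraries lay above its high Pi libraries and lay above every Col-0 low Pi library but A3. On the log2 scale the difference was 3.23 ± 0.72 (SE, adjusted p = 0.0124), and 2.11 without A2 (adjusted p = 0.211). PCC1, a small membrane protein controlled by pathogens and the clock, read 16.0 to 104 CPM in the mutant at low Pi and at most 1.32 CPM in every other library but A2 (21.0 CPM) and A3 (6.44 CPM). Its log2 difference was 7.70 ± 1.69 (SE, adjusted p = 0.0113), and 1.85 without A2 (adjusted p = 1).

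BDA1, an ankyrin repeat protein of immunity, had 6.08 ± 1.43 (SE, adjusted p = 0.0199), and 3.46 without A2 (adjusted p = 0.771). ACD6, an ankyrin membrane protein that raises SA, and PBS3, of the GH3 family, had 3.04 ± 0.76 and 4.20 ± 1.02 (SE, adjusted p = 0.0359 and 0.0281). Without A2 they stood at 2.30 and 2.55 (adjusted p = 0.224 and 0.568), and their calls were lost in 10 and 7 of the 23 fits with a library left out. AT5G03350, a legume lectin family protein, had 3.16 ± 0.71 (SE, adjusted p = 0.0124), and 2.21 without A2 (adjusted p = 0.176). PR1, the classic SA marker, did not pass (adjusted p = 1) although it read 81.9 to 385 CPM in the mutant at low Pi. It read at most 0.29 CPM in Col-0 at high Pi, at most 0.366 CPM in 5 Col-0 low Pi libraries, 17.8 CPM in A3, and 0.734 to 20.9 CPM in the mutant at high Pi. PR2, a glucanase of the same response, read 173 CPM in A3, the highest of the 23 libraries, and 1.56 to 46.4 CPM in the mutant at low Pi (log2 difference -1.76, adjusted p = 0.933). ICS1, EDS1 and NPR1 rose at low Pi in the mutant by 0.89, 0.64 and 0.45 on the log2 scale, and their differences of 0.78, 0.63 and 0.37 did not pass (adjusted p = 0.446, 0.286 and 0.395).

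Camalexin, the indole antimicrobial compound of Arabidopsis, had 2 of 9 genes called higher, beside 0.337% of all genes. The median of the 9 was 1.25. Both calls also held without A2 and without A2 and A3 together, but neither held with limma-voom. PAD3 (AT3G26830), the P450 of the last step, read 2.85 to 7.83 CPM (median 4.65) in Col-0 at high Pi and 1.88 to 4.32 CPM (median 2.86) at low Pi. The mutant read 3.23, 5.12, 2.65, 1.84 and 3.94 CPM at high Pi and 5.85 to 22.5 CPM (median 15.9) at low Pi. All 6 mutant low Pi libraries lay above those of Col-0 and above the mutant's own at high Pi. The responses differed on the log2 scale by 2.88 ± 0.61 (SE, adjusted p = 0.00726). GSTF6 was the other, and CYP71A12, an earlier P450, had 3.0 ± 0.87 (SE, adjusted p = 0.114).

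Lists without any called member covered pattern-triggered immunity (14 genes, median 0.10), endoplasmic reticulum chaperones (13, -0.01), anthocyanin synthesis (17, -0.79), aliphatic glucosinolates (20, -0.22), sulfur deficiency (14, 0.12), iron deficiency (22, 0.49), nitrate uptake (17, 0.06), senescence (9, -0.14), ferritins (3, -0.12) and cell division (13, -0.16). In the iron list 19 of 22 genes had a positive difference, beside 51.5% of all genes. Of the 22, 16 fell at low Pi in Col-0 against 7 in the mutant. The median of the iron list was 0.79 within experiment A and -0.14 within experiment B. In the sulfur list 12 of 14 fell at low Pi in each genotype.

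The called genes differed less between genotypes in experiment B than in A, by their medians. In experiment A alone, fitted with separate means for each experiment, the median log2 difference of the 63 genes was 2.68, and in experiment B 1.61. For the 34 genes it was -1.53 and -1.35. All 97 had the same sign in both experiments, but 58 of the 63 and 31 of the 34 were called within A, where 1.04% of all genes were higher and 1.32% lower. Within B, which has 2 mutant high Pi libraries, 1 and 0 were called, where 0.0107% of all genes were higher and none lower (edgeR, with 548 and 376 at an unadjusted p under 0.05). The difference itself was higher in B than in A for 0.257% of all genes and lower for 0.0321%. Genes that passed this test had an adjusted p of at least 0.152 in the main untreated test. No called gene was thus among them, and the lower medians in B have no gene-level test behind them. Called genes were picked from these same libraries, so the shared sign is no independent repeat.

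The MeJA and flg22 libraries are other samples, which entered the fit of the untreated contrast through the experiment term and the shared estimate of the spread. MeJA, methyl jasmonate at 10 µM, is a wound and defence hormone, and flg22, at 1 µM, is the peptide of bacterial flagellin that triggers immunity, both given for the same 12 days. With these libraries left out, 16 genes named here kept their direction and lost their call, with adjusted p from 0.0527 to 0.163: PAP22, ACX6, AT2G43535, CYP81D8, GSTF6, GSTU11, AT2G20720, DTX1, BCS1, AT5G54100, UGT74E2, PBS3, PCC1, BDA1, ACD6 and AT5G03350. PHT1;2 passed the test there (adjusted p = 0.0103). In the 24 MeJA libraries 57 of the 63 genes had the same sign, against 49.3% of all genes, and the median was 1.29. All 34 genes with a lower response had the same sign there, against 50.7% of all genes, with a median of -0.82. Across all genes the MeJA libraries gave 13 higher calls (0.0695%) and 1 lower (0.00535%). PHO2, AT2G04070, CYP81D8 and AT2G41730, a calcium-binding site protein, were called higher in both, and IPS1 lower in both. PHO2 read 807.9 to 1034 CPM in the mutant and 130.1 to 207 CPM in Col-0 at low Pi with MeJA, a log2 difference of 0.95 ± 0.20 (SE, adjusted p = 0.033). IPS1 had no read in the 6 Col-0 libraries at high Pi with MeJA, where no fold can be given, and read 5.00 to 21.3 CPM at low Pi, against 4.16 to 23.4 and 5.95 to 14.2 CPM in the mutant.

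In the 24 flg22 libraries 49 of the 63 had the same sign, against 47.5% of all genes, with a median of 0.23. Of the 34 genes, 21 (61.8%) had the same sign, near the 52.5% of all genes, with a median of -0.07. edgeR called no gene there in either direction, with 272 higher and 330 lower at an unadjusted p under 0.05. AOX1A had a log2 difference of 0.25 with flg22, PCC1 0.65, RHS19 -0.02 and NPC4 -1.71, none past the threshold. No gene passed the test of a changed difference between flg22 and untreated libraries, with 450 higher and 511 lower at an unadjusted p under 0.05, nor between MeJA and untreated libraries, with 217 and 277.

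**Figure D5:**
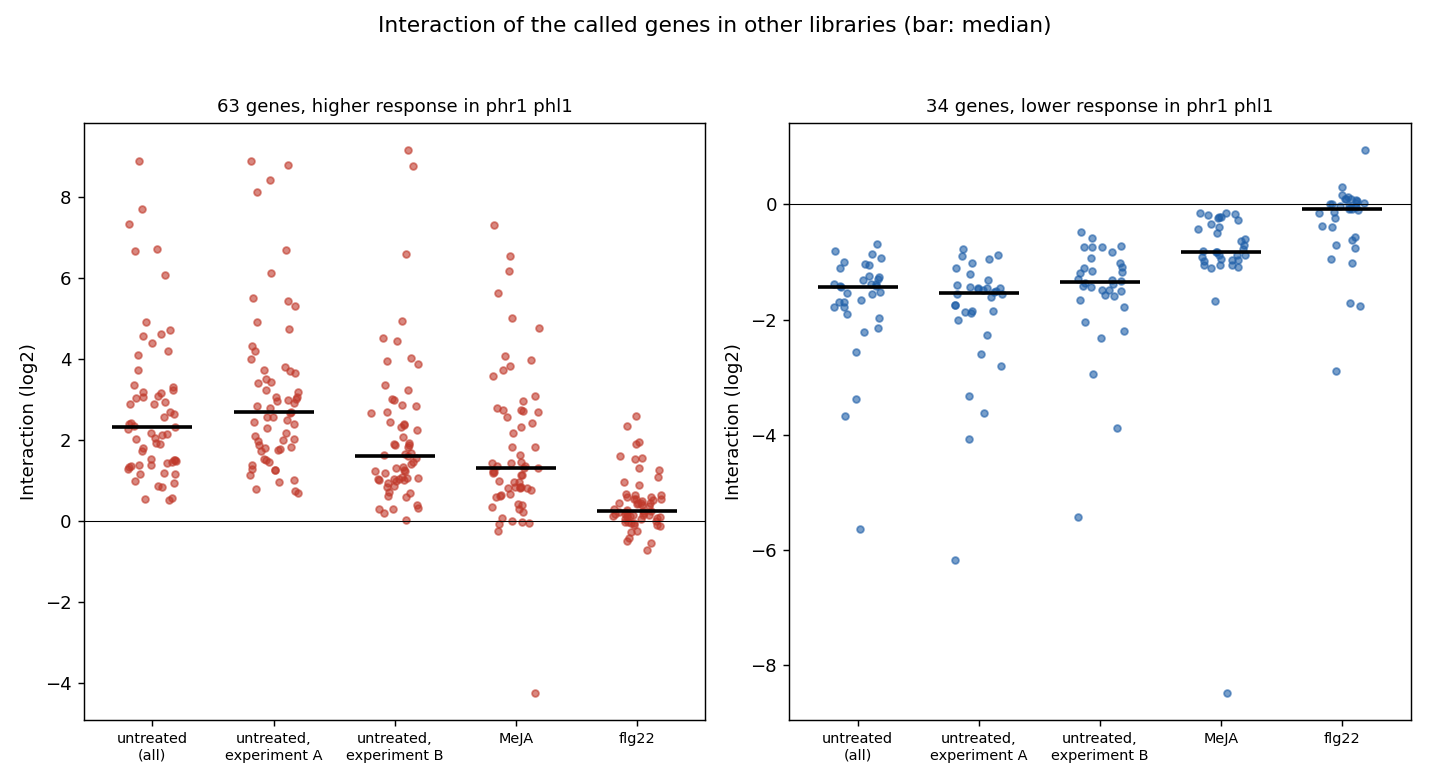
Points give the log2 difference of low Pi responses for the 63 genes (left) and the 34 genes (right) in all untreated libraries, in experiments A and B, and in MeJA and flg22 libraries, with bars at the medians. The medians of the 63 are 2.33, 2.68, 1.61, 1.29 and 0.23, and those of the 34 -1.43, -1.53, -1.35, -0.82 and -0.07.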

How the data were processed

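The authors deposited 1 table of raw counts per gene for 72 libraries, whole numbers with no normalization. Tools listed in the submitters' processing notes are TopHat2 2.1.1, cutadapt 1.3, HTSeq 0.6.1p1 and CASAVA 1.8, with TAIR10 as the genome build. Per the labels' protocols, poly(A) RNA from 1000 ng of total RNA went into non-stranded libraries, so overlapping and antisense genes cannot be told apart, and counts of near-identical genes are uncertain.

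Counts were tested with edgeR 4.0.16 in R 4.3.3: filterByExpr with a minimum count of 10, TMM scaling and a robust quasi-likelihood model over 71 libraries with terms for the 12 groups and the experiment (biological coefficient of variation 0.173). The doubted library was left out. P-values were adjusted by Benjamini-Hochberg over the 18693 genes tested, with a threshold of 0.05. Standard errors are the log2 value divided by the square root of the F statistic. CPM use TMM-scaled library sizes and are not corrected for length, so levels are compared between libraries and not between genes. Within-experiment values came from means of each group and experiment.

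The 22 lists (374 genes) and the members were chosen with earlier results of these data known. Beyond list members, the text names the 15 largest differences in each direction, PHR1, PHL1, and genes said to be chosen later. The 15 come from called genes whose log2 CPM averaged 1 or more and whose sign was shared by both experiments. Some other genes are named outside this rule with the calls known, among them ANNAT1, DTX1, DOGT1, AT4G12735 and AT2G41730. Not every gene the rule allows is printed. Gene names and promoter windows come from RefSeq TAIR10.1. The files are TAIR10, and no coordinate was carried between them.

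Libraries of a group differed by more than sampling noise in all 55 pairs (chi-square per degree of freedom at least 1.9). Pairs within an experiment and pairs of an A with a B library were counted together. Alternatives were other scalings, filters and tools (DESeq2 1.42.0, limma 3.58.1), other terms, each experiment alone, and each library left out.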

Additional observations from a re-analysis of the deposited data

Results flagged for a closer look

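Of 360 groups of values (a gene or a list in 1 group of libraries), 46 held a library far from its group, which is 12.8%. The cut-off is nominally 1 in 20 for normally spread, independent values. CPM pooled over 2 experiments, in related genes, need not follow that, so the excess was not tested. Many of them were immune genes in Col-0 high Pi A2 and Col-0 low Pi A3. phr1 phl1 high Pi B2 stood apart in IPS1 (5.51 CPM, nearest other 2.21), PLL3 (2.2 CPM, nearest other 0.882). Col-0 high Pi A2 stood apart in SPX3 (0.447 CPM, nearest other 0), AT5G61550 (6.71 CPM, nearest other 3.65), BCS1 (27.3 CPM, nearest other 10.9), PBS3 (12.7 CPM, nearest other 1.86). Col-0 high Pi A2 stood apart also in EDS1 (57.7 CPM, nearest other 28.1), CBP60G (30.2 CPM, nearest other 10.4), WRKY70 (58.8 CPM, nearest other 6.11), PCC1 (21.0 CPM, nearest other 0.203). Col-0 high Pi A2 stood apart also in BDA1 (6.04 CPM, nearest other 0.531), WAK1 (88.1 CPM, nearest other 15.1), ACD6 (58.1 CPM, nearest other 25.5), AT5G03350 (55.0 CPM, nearest other 12.3). In Col-0 high Pi A2 the summed CPM of salicylic acid outputs was 227, and the nearest other library read 79.7. In Col-0 high Pi A2 the summed CPM of salicylic acid synthesis and signalling was 514, and the nearest other library read 279. Col-0 high Pi A3 stood apart in OCT1 (21.5 CPM, nearest other 8.34), AT1G64590 (4.25 CPM, nearest other 10.4), AT3G28510 (18.9 CPM, nearest other 3.80). phr1 phl1 low Pi B1 stood apart in OCT1 (8.63 CPM, nearest other 4.09), PR2 (46.4 CPM, nearest other 14.2). Col-0 high Pi A1 stood apart in ACX6 (0 CPM, nearest other 1.34). Col-0 low Pi A3 stood apart in AT2G43535 (125 CPM, nearest other 58.5), CHIB (105 CPM, nearest other 60), GSTF7 (39.2 CPM, nearest other 17.3), GSTF6 (58.0 CPM, nearest other 21.9). Col-0 low Pi A3 stood apart also in AT3G28580 (2.97 CPM, nearest other 0.808), AT3G28510 (5.29 CPM, nearest other 1.55), BCS1 (11.1 CPM, nearest other 3.77), EDS1 (41.1 CPM, nearest other 28.3). Col-0 low Pi A3 stood apart also in WRKY70 (29.4 CPM, nearest other 6.95), PCC1 (6.44 CPM, nearest other 0.428), BDA1 (2.15 CPM, nearest other 0.196), WAK1 (30.7 CPM, nearest other 7.49). Col-0 low Pi A3 stood apart also in PR1 (17.8 CPM, nearest other 0.366), PR2 (173 CPM, nearest other 2.38). In Col-0 low Pi A3 the summed CPM of salicylic acid outputs was 479, and the nearest other library read 38.7. In Col-0 low Pi A3 the summed CPM of salicylic acid synthesis and signalling was 476, and the nearest other library read 303. Col-0 high Pi B3 stood apart in CYP81D8 (16.6 CPM, nearest other 6.64), PR2 (4.78 CPM, nearest other 1.57). phr1 phl1 low Pi A1 stood apart in AT3G28580 (22.7 CPM, nearest other 9.39), AT3G28510 (60.4 CPM, nearest other 26.5). phr1 phl1 high Pi A2 stood apart in AT2G04070 (2.70 CPM, nearest other 0.950), PR1 (20.9 CPM, nearest other 3.42). phr1 phl1 high Pi A3 stood apart in PR2 (4.85 CPM, nearest other 1.42). In Col-0 low Pi B1 the summed CPM of root endodermis and root tip was 212, and the nearest other library read 187.

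A test of the difference between experiments, in a fit with separate means for each, found 48 genes whose difference of low Pi responses was higher in experiment B than in A and 6 for which it was lower, at an adjusted p under 0.05 by edgeR. TPS8 and TPS11, of the trehalose phosphate synthase family, stood at -2.47 and -2.66 in A against 0.73 and 0.77 in B (log2, adjusted p = 2.01e-07 for both). WRKY51 stood at 4.09 in A and -1.38 in B (adjusted p = 0.0143).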

How the results depend on the processing

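The 63 higher and 34 lower calls were recomputed under each alternative. DESeq2 gave 98 higher (61 of the 63 among them) and 57 lower (all 34). Means for each group and experiment gave 137 and 95, and experiment A alone 204 and 243. Experiment B alone gave 0 and 0 by edgeR, with 515 higher and 357 lower at an unadjusted p under 0.05. A fit with no experiment term gave 37 higher, and keeping the doubted library gave 78 lower. Leaving out 1 library each gave 44 to 102 higher and 26 to 54 lower, with 102 without Col-0 low Pi A3 and 54 without Col-0 low Pi B1. By number, calls with other scalings, filters and limma-voom stayed within 1.5 times. But limma-voom held 38 of the 63 among 45 higher and 29 of the 34 among 36 lower. With limma-voom 13 named genes lost their call, with adjusted p from 0.0555 to 0.574. They were PHT1;1, LRX1, XTH14, GSTF6, AT3G28510, UGT74E2, PBS3, PCC1, BDA1, WAK1, ACD6, AT5G03350 and PAD3. The 23 untreated libraries alone gave 46 higher (29 of the 63) and 41 lower (29 of the 34). Leaving out Col-0 high Pi A2 and low Pi A3 together, chosen after seeing the data, gave 50 higher (38 of the 63) and 23 lower (21 of the 34). Without this pair 13 named genes lost their call. They were PHT1;1, PAP22, RHS13, LRX1, XTH14, AGP3, CHIB, UGT74E2, AT5G51440, PBS3, PCC1, BDA1 and ACD6. With the replicate block there were 51 higher and 32 lower calls, but the deviations of 33 same-numbered pairs had correlations from -0.316 to 0.345, so the numbers do not pair the libraries. Among 53 named called genes no direction turned, and 101 of 1219 fits with a library left out and 132 of 739 other fits lost the call. The causes were not tested. Counts of a few reads in a group limit the folds of IPS1, SPX3, AT2G04070, PCC1, BDA1 and PR1.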
